A study of Mus musculus with 4 samples.

Results

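The synaptonemal complex genes described here are Sycp1, Sycp2, Sycp3, Syce1, Syce2, Syce3 and Tex12. They were chosen by symbol, and each matched 1 of the 23420 gene symbols in the expression table. All 7 were among the 10316 genes tested, which had a mean above 1 TPM (a transcript level scaled for gene length and for library size) in at least 1 condition. RNA was measured in wild-type pachytene spermatocytes sorted by FACS from B6 mice 23 weeks of age, the study's strain being C57BL/6. The sorted cells were kept in short-term culture for 24 h with DMSO (Ctrl, n = 2 libraries) or with 10 µM AZ20, an inhibitor of the DNA damage response kinase ATR (n = 2 libraries). Every library came from 15000 cultured cells, and in each experiment the testicular cells of a mouse were divided between both conditions. Libraries with the same replicate number were taken as pairs, which the sample titles do not state. The cells were cultured after sorting, outside the seminiferous tubule, which limits them as a model of meiosis in vivo.

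The synaptonemal complex is the protein zipper that holds homologous chromosomes together during pachytene. SYCP2 and SYCP3 build the lateral elements along each chromosome axis, SYCP1 forms the transverse filaments that bridge the axes, and SYCE1, SYCE2, SYCE3 and TEX12 form the central element in the middle. In male meiosis the X and Y chromosomes remain unsynapsed over most of their length, and ATR acts on their axes during meiotic sex chromosome inactivation, the silencing of both sex chromosomes. The comparison of AZ20 with Ctrl asked, for these genes, whether RNA of the structural proteins of the complex differed after a day of ATR inhibition.

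The libraries held at least 13856307 and 15727499 reads on genes in Ctrl and at least 20090092 and 18401951 in AZ20, so both AZ20 libraries were deeper. Markers of pachytene spermatocytes were present, with Ldhc, a lactate dehydrogenase of the male germ line, at 5216 to 6178 TPM and 9 of 10 markers tested, and 0 of the 9 were called between conditions. Hist1h1t, the gene of the testis histone H1t, was at most 1.52 TPM, with 0 and 16 reads recovered in Ctrl and 11 and 0 in AZ20. The study stained its sorted cells for the H1T protein, which an RNA level does not measure. The summed TPM of 8 Sertoli cell markers was 1.39 to 2.27, with 3 of the 8 at 0 in every library, that of 6 Leydig cell markers 0.866 to 2.31, with 5 of the 6 at 0, that of 6 macrophage markers 0.659 to 1.47, and that of 4 peritubular myoid cell markers 0.598 to 1.76. The summed TPM of 8 spermatogonia markers was 11.1 to 23.9. Round spermatid markers, which include the protamine and transition protein genes, differed between replicates and between conditions. Their summed TPM was 370.2 and 152.5 in Ctrl replicates 1 and 2, and 784.1 and 254.6 in AZ20 replicates 1 and 2. The sum was thus higher in AZ20 within both same-numbered pairs, while the conditions overlapped across pairs. Fitted log2 changes were positive for all 8 markers, at 0.21 to 1.11 with a median of 0.77. The median over all genes tested was 0.07. Of the 8 markers, 0 were called, and Acrv1 and Tssk1 had opposite signs in the pairs.

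The genes lie on 7 different autosomes. In GRCm38 with the GENCODE M21 annotation, Sycp1 lies at chr3:102818499-102936100 (minus strand, 33 exons in its longest transcript), Sycp2 at chr2:178345293-178407685 (minus strand, 44 exons) and Sycp3 at chr10:88459569-88473236 (plus strand, 8 exons). Of the central element genes, Syce1 lies at chr7:140777229-140787852 (minus strand, 13 exons), Syce2 at chr8:84872111-84888221 (plus strand, 5 exons), Syce3 at chr15:89390174-89410503 (minus strand, 3 exons) and Tex12 at chr9:50556819-50561325 (minus strand, 5 exons). Exons of Sycp3 share bases with Chpt1 on the opposite strand, and Chpt1 was at 11.7 to 15.0 TPM. A processed pseudogene of Sycp1, Sycp1-ps1, lies at chr7:18786332-18789099 and was at 0.508 to 1.13 TPM.

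The start regions of 4 of the genes are shown because they share the short E-box sequence CACGTG, which the windows of the other 3 lack. Each is the RefSeq sequence (GRCm38.p6) from 250 bases before to 50 bases after an annotated start, 300 bases in all, written 5′ to 3′ on the strand of the gene, and capitals mark the matches to 3 motifs searched on both strands. The windows are chr10:88459337-88459636 on the plus strand for Sycp3, chr3:102936051-102936350 on the minus strand for Sycp1, chr8:84872008-84872307 on the plus strand for Syce2 (the second of its 2 annotated starts) and chr9:50561219-50561518 on the minus strand for Tex12.
Sycp3: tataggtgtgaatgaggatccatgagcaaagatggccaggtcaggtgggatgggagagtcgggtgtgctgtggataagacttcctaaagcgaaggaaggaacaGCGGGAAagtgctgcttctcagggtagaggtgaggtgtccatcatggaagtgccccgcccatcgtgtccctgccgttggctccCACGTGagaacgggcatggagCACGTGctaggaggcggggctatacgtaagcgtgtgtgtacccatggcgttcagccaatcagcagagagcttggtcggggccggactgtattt
Sycp1: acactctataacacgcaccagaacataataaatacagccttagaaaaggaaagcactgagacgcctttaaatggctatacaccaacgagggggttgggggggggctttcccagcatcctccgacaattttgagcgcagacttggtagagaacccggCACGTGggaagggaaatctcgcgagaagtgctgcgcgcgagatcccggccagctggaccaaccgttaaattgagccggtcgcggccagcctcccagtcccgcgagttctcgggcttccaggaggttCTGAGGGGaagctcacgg
Syce2: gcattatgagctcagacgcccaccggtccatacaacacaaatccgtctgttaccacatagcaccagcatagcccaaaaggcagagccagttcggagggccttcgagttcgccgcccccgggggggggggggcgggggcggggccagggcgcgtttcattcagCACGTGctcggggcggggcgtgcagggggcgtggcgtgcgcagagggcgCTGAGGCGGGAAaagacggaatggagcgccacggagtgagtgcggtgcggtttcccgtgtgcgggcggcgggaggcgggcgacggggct
Tex12: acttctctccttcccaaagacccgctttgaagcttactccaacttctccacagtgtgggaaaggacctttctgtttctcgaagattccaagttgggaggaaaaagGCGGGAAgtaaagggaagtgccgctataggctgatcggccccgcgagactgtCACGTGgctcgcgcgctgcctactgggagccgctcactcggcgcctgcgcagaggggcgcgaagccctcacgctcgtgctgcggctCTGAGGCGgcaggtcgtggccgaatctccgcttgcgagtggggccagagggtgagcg
The first motif is the E-box CACGTG, to which dimers of MAX with partners such as MGA bind. The second is GCGGGAA, a sequence of the E2F type, and the third is CNCCTCAG, known as the motif of the meiotic initiator STRA8 and MEIOSIN. All 3 were picked after these sequences had been seen.

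The 7 genes had 9 start windows, with 2 each for Syce2 and Syce3. The E-box letters were in 4 of the 9 windows, 1 each of Sycp1, Sycp3, Syce2 and Tex12, and in 7.15% of all 32851 windows of this length. They started 94 bases before the start in Sycp1, 88 before it in Syce2, 93 before it in Tex12, and 64 and 43 before it in Sycp3. The E2F-type letters were in 3 of the 9 windows, those shown of Sycp3, Syce2 and Tex12, against 4.60% of all windows. Windows with both sets of letters numbered 150, or 0.457% of all, and 3 of these belonged to the complex. The STRA8 motif letters were in 3 of the 9, those shown of Sycp1, Syce2 and Tex12, against 7.94% of all windows, and in Syce2 they shared 3 bases with the E2F-type letters. None of the 3 motifs was in the windows of Sycp2, Syce1 or Syce3, or in the first window of Syce2. A match of letters is a description of the window and not a binding site. Since the motifs were picked from these sequences, their shares beside those of all windows are no support for a shared motif.

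All 7 genes were abundant in every library. The order of their mean levels per length over the 4 libraries was Sycp3, Syce1, Syce2, Tex12, Sycp1, Syce3 and Sycp2, and these were numbers 46, 147, 198, 284, 535, 741 and 1027 among the 10316 genes tested. The highest mean, 2493 TPM for Sycp3, was 14.2 times the lowest, 175.2 TPM for Sycp2. Thus both lateral element genes stood at the ends of the order, with the transverse filament gene and the central element genes between them.

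**Figure D1:**
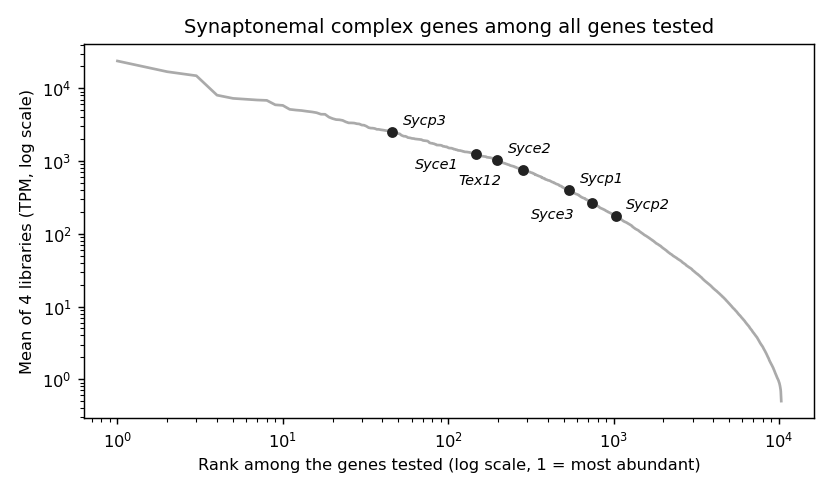
Mean level of the 4 libraries (TPM, log scale) against rank among the 10316 genes tested (log scale), with the grey line for all genes and points for the synaptonemal complex genes. The 7 genes sit between rank 46 (Sycp3) and rank 1027 (Sycp2).

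Of the neighbours in this order, Syce1 and Syce2 overlapped across libraries, and Syce1 was the higher of the pair in 3 of 4 libraries. The other 5 neighbouring pairs kept their order in all 4 libraries with ranges that did not overlap. The narrowest of these was Syce2 above Tex12, where the lowest Syce2 value was 909.2 TPM and the highest Tex12 value 901.0 TPM. The reads behind these values were at least 1400 (Syce3 in Ctrl replicate 1) and up to 43055 (Sycp3 in AZ20 replicate 2).

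Of the lateral element genes, Sycp3 was at 2061 and 2424 TPM in Ctrl replicates 1 and 2 and at 2564 and 2924 TPM in AZ20 replicates 1 and 2. Both AZ20 libraries were above both Ctrl libraries. Its fitted change on the log2(TPM + 1) scale was 0.29 ± 0.14 (SE), with a 95% interval of -0.04 to 0.63 and a limma adjusted p of 0.636. Sycp2, which encodes the partner of SYCP3 in the lateral element, was at 186 and 159 TPM in Ctrl and at 171 and 184 TPM in AZ20, and the conditions overlapped. Its fitted change was 0.05 ± 0.17 (95% interval -0.35 to 0.44, limma adjusted p = 0.970).

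The transverse filament gene Sycp1 was at 357 and 392 TPM in Ctrl and at 337 and 493 TPM in AZ20. Its AZ20 libraries lay on either side of the Ctrl libraries. The fitted change was 0.13 ± 0.21 (95% interval -0.37 to 0.62, limma adjusted p = 0.923).

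Syce2 and Tex12 encode proteins that bind each other and form the backbone of the central element. Syce2 was at 909 and 945 TPM in Ctrl and at 987 and 1239 TPM in AZ20, without overlap of the conditions, and its fitted change was 0.25 ± 0.15 (95% interval -0.11 to 0.62, limma adjusted p = 0.729). Tex12 was at 600 and 800 TPM in Ctrl and at 695 and 901 TPM in AZ20. Here the difference between replicates was larger than that between conditions, and the fitted change was 0.19 ± 0.20 (95% interval -0.28 to 0.66, limma adjusted p = 0.858).

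SYCE1 and SYCE3 link the transverse filaments to the central element. Syce1 was at 1204 and 1363 TPM in Ctrl and at 1258 and 1136 TPM in AZ20, and its fitted change was -0.10 ± 0.14 (95% interval -0.43 to 0.23, limma adjusted p = 0.901). Syce3, the gene of the smallest protein of the complex, was at 251 and 283 TPM in Ctrl and at 234 and 290 TPM in AZ20, with a fitted change of -0.03 ± 0.17 (95% interval -0.45 to 0.38, limma adjusted p = 0.982). In both genes the conditions overlapped.

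**Figure D2:**
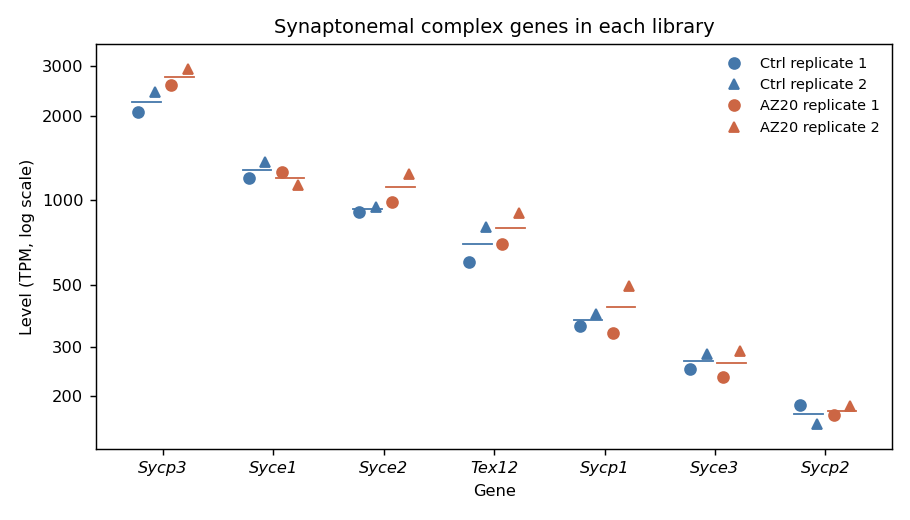
Level (TPM, log scale) of each gene in each library, with circles for replicate 1, triangles for replicate 2, blue for Ctrl, red for AZ20 and a line at each group's mean (n = 2). The AZ20 libraries lie above both Ctrl libraries for Sycp3 and Syce2 and overlap them for the other 5 genes.

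None of the 7 genes was called between conditions, where a call required both a 2-fold difference and a limma adjusted p under 0.05, and 0 of the 7 had an unadjusted p under 0.05. Over all genes tested, 2.33% were called in either direction, 2.28% as higher, and 9.16% had an unadjusted p under 0.05. The 95% intervals of the 7 genes ran from 0.734-fold to 1.59-fold, so that a change of 2-fold in either direction lay outside each of them. Changes within each gene's interval were not resolved with 2 libraries a condition. Voom on reads recovered from the TPM also called 0 of the 7.

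Fitted changes were positive for 5 genes and negative for 2, and their median was 0.13 on the log2 scale, beside 0.07 over all genes tested and 0.06 over the 9926 autosomal genes tested. The median depended on the AZ20 libraries, and was 0.38 without AZ20 replicate 1 and -0.0055 without AZ20 replicate 2. The sign was the same within both pairs for 3 genes, Sycp3 (0.31 and 0.27 in pairs 1 and 2), Tex12 (0.21 and 0.17) and Syce2 (0.12 and 0.39), and opposite for the other 4. Both AZ20 libraries were above both Ctrl libraries for 2 of the 7 genes, Sycp3 and Syce2, against 26.4% of all genes tested.

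The summed level of the 7 genes was 5567 and 6367 TPM in Ctrl and 6247 and 7168 TPM in AZ20, or 0.557% to 0.717% of all TPM. The mean sum was 5967 ± 566 in Ctrl and 6707 ± 651 in AZ20 (SD, n = 2), and AZ20 was 1.12 times Ctrl in pair 1 and 1.13 times in pair 2. AZ20 was higher within both pairs, while the conditions overlapped across pairs. The sum is weighted towards the most abundant gene, Sycp3, whose mean was 2243 TPM in Ctrl and 2744 TPM in AZ20. The means of Syce1 and Syce3 were lower in AZ20 and those of the other genes higher, and 4 of the 7 had opposite signs in the pairs. An exact permutation test cannot give a two-sided p below 0.5 with 2 pairs, or below 0.333 with 2 against 2 libraries unpaired, so none was run. In these bulk samples, fewer cells of a type and less RNA per cell cannot be told apart.

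Replicate 2 was above replicate 1 in both conditions for 5 of the 7 genes, Sycp1, Sycp3, Syce2, Syce3 and Tex12. This held for 21.8% of all genes tested and for 23.4% of the 1026 genes more abundant than Sycp2. Tex12 had differences of 0.42 in Ctrl and 0.37 in AZ20 on the log2(TPM + 1) scale, and Sycp1 of 0.14 and 0.55. The round spermatid markers ran the other way, with their sum higher in replicate 1 in both conditions. Their sum was also higher in AZ20 within both pairs. The part of these markers in the replicate or condition differences of the synaptonemal complex genes was not tested.

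**Figure D3:**
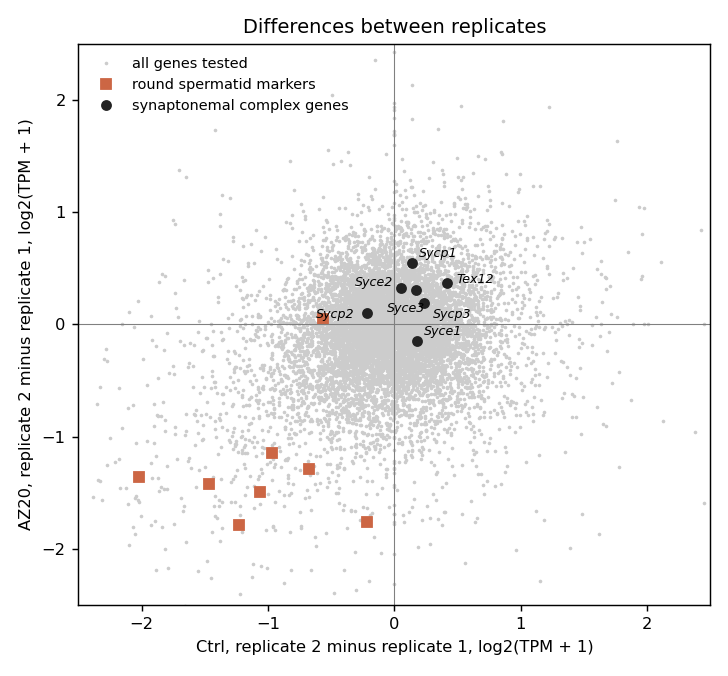
Replicate 2 minus replicate 1 on the log2(TPM + 1) scale in Ctrl (horizontal) and in AZ20 (vertical), with grey points for all genes tested (25 lie outside the axes), black circles for the synaptonemal complex genes and red squares for 8 round spermatid markers. Of the 7 black circles 5 are above 0 on both axes, while the red squares lie below 0 in Ctrl.

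The ratio between genes whose proteins bind each other was set side by side in each library. Sycp3 was 11.1 and 15.2 times Sycp2 in Ctrl and 15.0 and 15.9 times in AZ20. Syce2 was 1.52 and 1.18 times Tex12 in Ctrl and 1.42 and 1.38 times in AZ20, so the central element backbone genes stayed within 1.18 to 1.52 in all 4 libraries. Sycp1 was 1.42 and 1.39 times Syce3 in Ctrl and 1.44 and 1.70 times in AZ20, the 1 of these ratios in which the conditions did not overlap, by a mean of 0.16 on the log2 scale. This difference was 0.04 without AZ20 replicate 2 and 0.28 without AZ20 replicate 1. No test was run on the ratios.

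SYCE1 binds SIX6OS1, a further central element protein whose gene is listed as 4930447C04Rik. This gene was at 106 and 68.7 TPM in Ctrl and at 86.3 and 98.5 TPM in AZ20, and the conditions overlapped (log2 change 0.11, limma adjusted p = 0.947). Syce1 was 11.3 to 19.9 times as abundant as its partner. The paralog Syce1l was at 42.5 to 54.7 TPM (log2 change -0.03, limma adjusted p = 0.987).

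Around the complex, 0 of 6 tested genes of axis proteins and meiotic cohesins were called. Hormad1, which marks unsynapsed axes and recruits ATR to them, was the most abundant of these, at 951 and 1208 TPM in Ctrl and at 1113 and 1369 TPM in AZ20 (log2 change 0.20, limma adjusted p = 0.826). The extremes were Smc3, a cohesin subunit (0.64, limma adjusted p = 0.677), and Meiob, a single-strand DNA binding protein of meiotic recombination (-0.27, limma adjusted p = 0.836). Rec8 and Rad21l, meiotic cohesin subunits, were below 1 TPM in every library.

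Of 15 tested synapsis and crossover factors, 1 was called, as higher. This was the X-linked Tex11, which promotes crossovers, at 0.634 and 0 TPM in Ctrl and at 11.2 and 7.82 TPM in AZ20 (log2 change 3.02 ± 0.36, limma adjusted p = 0.00433), where 63.3% of X-linked genes tested were called as higher. Tex11 passed the filter only through its AZ20 level, and its change depended on the pseudocount, at 5.12 with 0.1 and 6.87 with 0.01 (adjusted p = 0.0663 and 0.341). The call was also lost with no minimum TPM (limma adjusted p = 0.0623) and without Ctrl replicate 2. Without either AZ20 library it was lost too, as was every call of the series. Psmc3ip, which with its partner Mnd1 assists strand invasion, was the most abundant at 1322 to 1651 TPM (-0.12, limma adjusted p = 0.882), while Mnd1 had the lowest fitted change (-0.55, limma adjusted p = 0.771). The median fitted change of the list was -0.11.

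None of 8 telomere attachment factors was called. Cdk2, a kinase at telomeres and crossover sites, had the highest fitted change (0.42, limma adjusted p = 0.536), Ccdc79, which encodes TERB1, the lowest (-0.17, limma adjusted p = 0.895), and Spdya, an activator of CDK2, the highest level at 98.8 to 121 TPM.

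Of 12 genes listed for disassembly and turnover of the complex, 1 was called, as higher. The lists were chosen with earlier results of these data known, so this count is no support by itself. Cks2, a subunit bound to cyclin-dependent kinases, was at 408 and 452 TPM in Ctrl and at 970 and 1039 TPM in AZ20, without overlap (log2 change 1.22 ± 0.14, limma adjusted p = 0.00381). Cks2 is autosomal, and 0.101% of autosomal genes tested were called as higher, or 10 of 9926. Its call was lost when any 1 library was left out, with changes of 1.15 to 1.30. Without either AZ20 library every call of the series was lost, so that loss is not particular to Cks2. With all 4 libraries, the call was lost when the variance had no intensity trend (limma adjusted p = 0.0526). The other alternatives with all 4 libraries kept it (limma adjusted p at most 0.0352, with no minimum TPM). Ccna1, cyclin A1 of male meiosis, had the lowest fitted change (-0.54, limma adjusted p = 0.80), and Skp1a, a ubiquitin ligase subunit, was at 689 to 889 TPM (0.14, limma adjusted p = 0.866).

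Of 7 tested regulators of meiotic prophase transcription, 0 were called. Max was at 0.939 and 0.908 TPM in Ctrl and at 1.51 and 1.56 TPM in AZ20 (log2 change 0.40, limma adjusted p = 0.803), and Mga was at 3.91 to 4.76 TPM (-0.03, limma adjusted p = 0.991). Pcgf6, a subunit of the Polycomb complex that contains MGA, was the most abundant at 112 to 147 TPM. Stra8 was at 0 in every library, and E2f6 was at most 0.551 TPM.

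Sycp3 belongs to a family with the Xlr genes and with Slx and Slxl1 on the X chromosome and Sly on the Y chromosome. Of 13 listed relatives, 8 were tested and all 8 of these, each X-linked, were called as higher in AZ20, where 63.3% of X-linked genes tested were called as higher. Of these 8, all but Slxl1 passed the filter only through their AZ20 level, so that their count is no support by itself.

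Slxl1, a spermatid protein gene, was at 3.47 and 1.05 TPM in Ctrl and at 206 and 217 TPM in AZ20 (log2 change 6.13 ± 0.36, limma adjusted p = 0.000131). Xlr was at 0.768 and 0 TPM in Ctrl and at 75.8 and 79.7 TPM in AZ20 (5.89 ± 0.32, limma adjusted p = 9.23e-05). With 4 and 0 reads in Ctrl, the change of Xlr depended on the pseudocount, at 8.05 with 0.1 and 9.78 with 0.01, where the call was lost (adjusted p = 0.125), and it was 8.19 with voom. In AZ20, Slxl1 was above Sycp2, the lowest gene of the complex, in both replicates (206 against 171 TPM and 217 against 184 TPM), and Xlr was below it. The summed level of all 13 relatives was 4.88 and 1.83 TPM in Ctrl and 329 and 327 TPM in AZ20.

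The other 6 called relatives were lower in level. Xlr4a, Xlr5a, Xlr5b and Xlr5c were at 0 in both Ctrl libraries, and their AZ20 mean was at least 22.2, 18.8, 9.99 and 20.2 times the level that 3 reads in each Ctrl library would give. Xlr4b had a fitted change of 3.02 (limma adjusted p = 0.00170) and Xlr4c of 2.02 (limma adjusted p = 0.0290), and with a pseudocount of 0.01 these were 4.99 and 4.42. The call of Xlr4c was lost with both smaller pseudocounts (adjusted p = 0.0589 and 0.115), no minimum TPM (0.115), quantile scaling (0.0765) and voom (0.125), and without either Ctrl library (0.190 and 0.143). Voom without a term for the replicate also ended the calls of Xlr4b, Xlr5b and Xlr5c (adjusted p = 0.0574, 0.0663 and 0.0717). With that term, voom kept the calls of Xlr4b, Xlr5b, Xlr5c and Xlr4c (adjusted p = 0.00436, 0.00855, 0.00176 and 0.0211). No minimum TPM ended the calls of Xlr5a and Xlr5c (0.111 and 0.0943), and quantile scaling that of Xlr5a (0.0975). Without Ctrl replicate 1 the calls of Xlr5a and Xlr5c were lost (adjusted p = 0.217 and 0.0787), and without Ctrl replicate 2 those of Xlr5a, Xlr5b and Xlr5c (0.257, 0.0502 and 0.132). Xlr3a was at 0 in every library, Xlr3b and Slx were at most 0.223 TPM, Xlr3c was at most 1.2 TPM, and the Y-linked Sly was at 0.158 to 0.582 TPM. These genes have near-identical copies and unique alignments were kept, so their values are uncertain. Without AZ20 replicate 1, or without AZ20 replicate 2, limma called 0 genes in the whole series (924 and 799 had an unadjusted p under 0.05).

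**Figure D4:**
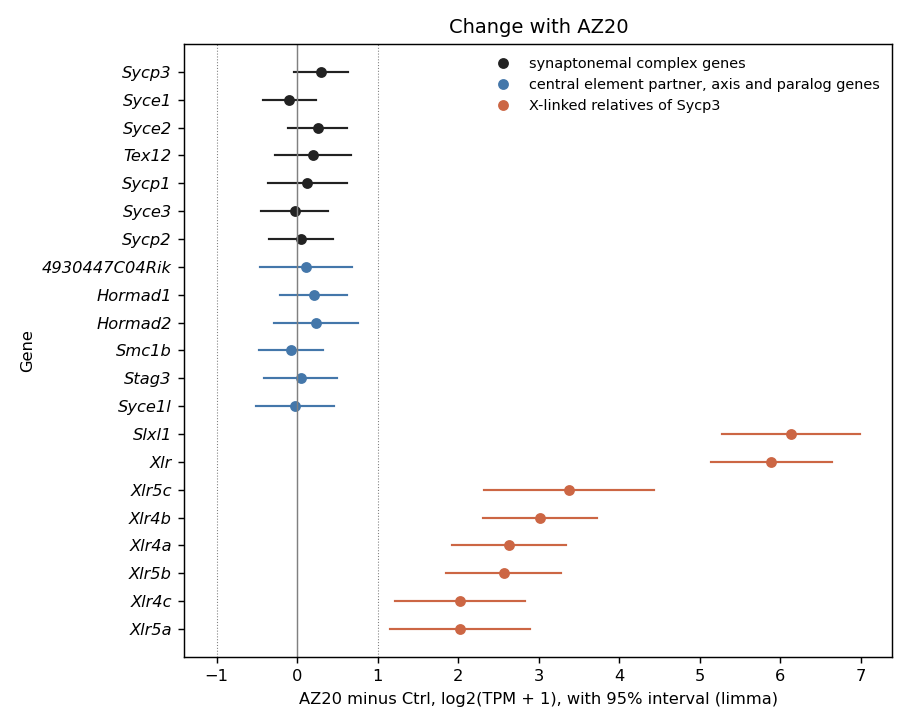
AZ20 minus Ctrl on the log2(TPM + 1) scale with 95% intervals (limma), for the synaptonemal complex genes (black), a central element partner, axis and paralog genes (blue) and the 8 tested X-linked relatives of Sycp3 (red), with dotted lines at a 2-fold change. Black points lie between -0.10 and 0.29, and red points between 2.02 and 6.13.

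Among the genes whose level over the 4 libraries was most like the mean profile of the complex were Rpl7, which encodes a ribosomal protein, and Snrpe, which encodes a core protein of the spliceosome. Their root mean square difference from that profile was 0.06 and 0.07 on the log2(TPM + 1) scale over 4 libraries.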

How the data were processed

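RNA was measured in 4 libraries (Ctrl and AZ20, 2 each), made with a low-input kit that does not mark strand and read as 150-bp pairs. The authors trimmed reads with Trimmomatic (version 0.39), aligned them to GRCm38 with STAR (version 2.5.4b), kept unique alignments, counted them on the UCSC refGene annotation with featureCounts (version 2.0.1) and deposited TPM computed from those counts. The culture was at 32 °C per the methods and at 34 °C per the labels.

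From the deposited TPM, whole reads were recovered for 16855 of 16857 genes above 0. They are the smallest whole numbers that give the TPM, since a common factor cannot be seen, so reads and depths are lower bounds. In addition, 92 lines without a symbol were left out, and 137 symbols could not be placed on a chromosome. Log2(TPM + 1) of genes with a mean above 1 TPM in either condition entered a linear model in limma 3.58.1 (R 4.3.3), whose variance followed an intensity trend and which had no term for the replicate, and p-values were adjusted by Benjamini-Hochberg over all genes tested. The fit was tested on simulated data. Python 3.11.15 with pandas 2.3.3 gave the remaining values.

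Testicular cells of a mouse were divided between conditions, and same-numbered libraries were taken as pairs. They deviated together from their group means (correlation 0.229 over 10316 genes). With 2 libraries a condition, swapping the numbers within a condition only reverses the sign of this value. It therefore cannot establish the pairs. Alternatives were pseudocounts of 0.1 and 0.01, a minimum of 5 TPM, no minimum, quantile and median-of-ratios scaling, the replicate as a block, no trend, and each library left out. Voom on the recovered reads, with and without the block, was added after the data were seen.

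Named were the 7 genes of the complex, every called gene, the highest and lowest fitted change and the highest level in each gene list, and the 3 genes nearest in profile, 1 of which is not reported here. The members and lists were chosen with earlier results of these data known.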

Additional observations from a re-analysis of the deposited data

How the results depend on the processing

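Under the 14 alternatives run, 0 of the 7 synaptonemal complex genes were called in each, and the lowest adjusted p was 0.448, for Sycp3 with the replicate block. The replicate block called 0 of the 7 and changed no call among the 10 called genes of the lists around the complex. In this balanced design the block cannot alter the fitted changes, so the median of the 7 stayed at 0.13 by construction. In the series it raised the calls from 235 higher and 5 lower to 424 and 23. With quantile scaling 1 of the 7 genes had an unadjusted p under 0.05, against 0 in the other alternatives. The sign of Sycp2 turned with median-of-ratios scaling (-0.04), and leaving out 1 library turned the sign of Sycp1, Sycp2, Syce3 or Tex12. The median change of the 7 genes ranged from -0.0055 to 0.38 when 1 library was left out. Called genes of the lists numbered 10, all higher, and were 6 with no minimum TPM, 6 with voom, and 0 to 6 when 1 library was left out. The lone library of a condition was then assumed to vary like the other condition. Voom with the replicate block kept all 10 calls of the lists. The cause of the losses under the other settings was not tested. Calls across the series were 171 higher with a pseudocount of 0.01. Quantile scaling moved the median of all genes from 0.07 to -0.07, while that of the 7 genes was 0.12. With 2 libraries a condition, changes within the intervals given were not resolved.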

Other observations

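Tex101, a surface protein gene of germ cells, was the largest part of the leptotene and zygotene marker list. It was at 524 and 959 TPM in Ctrl and at 449 and 375 TPM in AZ20, lower in both AZ20 libraries, and was not called (log2 change -0.79, limma adjusted p = 0.425). Of the other listed markers of these stages, Gm1564, which is Meioc, was at 73.2 to 96.0 TPM and Meiob at 6.30 to 9.49 TPM, while Stra8 was at 0 in every library and Dmc1, Prdm9 and Ccnb3 were below 1 TPM in every library. Among synapsis and crossover factors that did not pass the test, Msh4 was at 10.1 and 11.3 TPM in Ctrl and at 15.9 and 19.5 TPM in AZ20, and Ccnb1ip1 at 115 and 142 TPM in Ctrl and at 161 and 199 TPM in AZ20. Their limma adjusted p was 0.400 and 0.519. Both were picked here after their values were seen, from a list whose median fitted change was -0.11.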
